A study of Mus musculus with 8 samples.

Results

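Vitamin A uptake and retinoid metabolism in the jejunum were examined through 9 genes, Rbp2, Lrat, Bco1, Isx, Dhrs3, Retsat, Aldh1a1, Aldh1a2 and Rarb. These were chosen by symbol and matched to 9 of the 56980 gene identifiers counted in each library, and 8 of the 9 (all but Rarb) were expressed highly enough to be tested. Libraries came from bulk RNA of jejunal mucosal scrapings of male mice, 4 libraries from Adipoq-F2-KO mice and 4 from FFA2 fl/fl controls. In Adipoq-F2-KO mice the floxed FFA2 gene (Ffar2, a receptor for short-chain fatty acids) is removed by a Cre recombinase under the adiponectin promoter, a promoter active in adipocytes. The controls were co-housed littermates that carried the same floxed alleles without Cre. All mice ate standard chow until 12 weeks of age, then a Western diet with 10% fructooligosaccharides, a fermentable fiber, for 2 weeks in thermoneutral housing. The comparison asks how the jejunal transcriptome differs between the genotypes when the receptor is missing from adipose tissue.

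Dietary vitamin A reaches the enterocyte as retinol or as provitamin A carotenoids. Carotenoids are cleaved to retinal by BCO1, retinal is reduced to retinol, and retinol bound to RBP2 is esterified by LRAT and packed into chylomicrons for export in lymph. A small share is oxidized to retinoic acid by the ALDH1A enzymes. Retinoic acid acts through the nuclear receptors RAR and RXR, induces the homeobox repressor Isx, and through ISX lowers Bco1 and the carotenoid transporter Scarb1, a feedback loop of the small intestine.

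Promoter sequence is shown for 3 of the genes, because the start regions of Rarb and Bco1 hold direct repeats of the half-site bound by retinoid receptors and their partners, and that of Rbp2 shares most letters of the Bco1 repeat. Each stretch is 60 bases, written 5′ to 3′ on the strand of the gene, from RefSeq on mouse assembly GRCm38.p6, and capitals mark the repeat or, for Rbp2, the shared letters.
Rarb: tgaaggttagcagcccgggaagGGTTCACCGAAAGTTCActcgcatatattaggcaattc
Bco1: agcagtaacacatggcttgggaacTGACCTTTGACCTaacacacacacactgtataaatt
Rbp2: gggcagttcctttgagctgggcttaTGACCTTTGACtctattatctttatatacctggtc
The Rarb stretch is chr14:16575492-16575551 on the minus strand, inside the span of the gene at a RefSeq start site, and its capitals are a DR5 repeat, the classical retinoic acid response element, 53 to 37 bases before the start. The Bco1 stretch, chr8:117095785-117095844 on the plus strand, lies just upstream of the gene, and its capitals are a DR1 repeat read on the opposite strand, 56 to 44 bases before the start. The Rbp2 stretch, chr9:98490454-98490513 on the plus strand, lies inside the span of the gene before a RefSeq start site, and its capitals, which are no complete repeat, are the letters that it shares with the Bco1 repeat, 58 to 48 bases before the start.
In 32851 windows of 300 bases around RefSeq start sites, searched on both strands, a DR5 repeat was found in 0.0974% and a DR1 repeat in 0.222%. Of the 12 windows of the 9 genes, Rarb held the DR5 repeat and Bco1 the DR1 repeat. The run TGACCTTTGAC, the longest part of the Bco1 repeat that is also near the Rbp2 start, was in 0.0365% of all windows and in those of Bco1 and Rbp2. The shared run was chosen from the Bco1 and Rbp2 windows, so its presence in both was fixed by that choice. Its share of all windows is given as a description only. These matches describe the letters only, and binding was not measured.

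In GENCODE M21 (GRCm38) all 9 are protein-coding genes. The annotation used for counting was not stated and may be another release, so positions and lengths are those of M21. On the plus strand lie Rbp2 (chr9:98486115-98509781), Bco1 (chr8:117095854-117133720), Isx (chr8:74873173-74893506), Dhrs3 (chr4:144892827-144928209), Retsat (chr6:72598475-72608425), Aldh1a1 (chr19:20492715-20643465) and Aldh1a2 (chr9:71215789-71296243). Lrat (chr3:82892579-82903973) and Rarb (chr14:16430839-16819156) lie on the minus strand.

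Total counts ranged from 6007654 to 21712776 per library, and 3 libraries held fewer than 10000000 counts (FFA2 fl/fl 3 and Adipoq-F2-KO 3 and 4). The same 3 libraries stood apart in their content. Fabp6, an ileal bile acid binding protein, had 523, 140.1 and 942 normalized counts in them and at most 3.95 in the other 5. Slc10a2, the ileal bile acid transporter, had 330.4, 268 and 415.5 in them against 30.0 to 78.2. Both were picked, for standing apart, from a distal small intestine list. The score of that list (a mean of centred log2 values) was 0.936, 0.532 and 0.877 in the shallow libraries and at most -0.112 in the other 5. The proximal small intestine list did not set them apart, with -0.225, 0.373 and 0.007 against -0.165 to 0.09. Adipoq, an adipocyte gene, had 123, 54.1 and 22.6 in the shallow libraries against at most 1.86. The epithelial and villus enterocyte marker lists were at similar levels in both genotypes, summing to between 190939 and 239010 and between 575040 and 646047 normalized counts per library. A normalized count is a count divided by the size factor of its library. Fold changes of the members were therefore computed in all 8 libraries and in the 5 deeper ones, 3 controls and 2 Adipoq-F2-KO. Ffar2 itself was covered by 12, 18, 2 and 11 reads in FFA2 fl/fl libraries 1 to 4 and by 13, 12, 6 and 3 reads in Adipoq-F2-KO libraries 1 to 4, which is no check of a deletion in adipocytes.

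Rbp2, the retinol carrier of the enterocyte, dominated the group. Per unit of transcript length it averaged 8474 ± 1776 TPM (SD, n = 8), which ranked 16 among all genes. TPM is the length-scaled share of a gene in its library. Aldh1a1 followed at 277 ± 103 TPM, Retsat at 214 ± 62.9 and Isx at 211 ± 46.8, then Dhrs3 at 51.5 ± 12.5 and Lrat at 21.4 ± 3.11. Bco1 averaged 4.13 ± 3.13 TPM, Aldh1a2 2.42 ± 1.48 and Rarb 0.144 ± 0.102. Rbp2 was thus 30.6 times as abundant as Aldh1a1, and its lowest library, at 5550.4 TPM, was above the highest library of any other member, 492 TPM for Aldh1a1. Some neighbours in this order did not separate. Retsat was above Isx in 3 of 8 libraries and Bco1 above Aldh1a2 in 5 of 8, while Aldh1a1 was above Retsat in 8 of 8 although their ranges overlapped. The order was the same when the longest transcript replaced the merged exons as the length, with Aldh1a1 at 486 TPM.

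**Figure D1:**
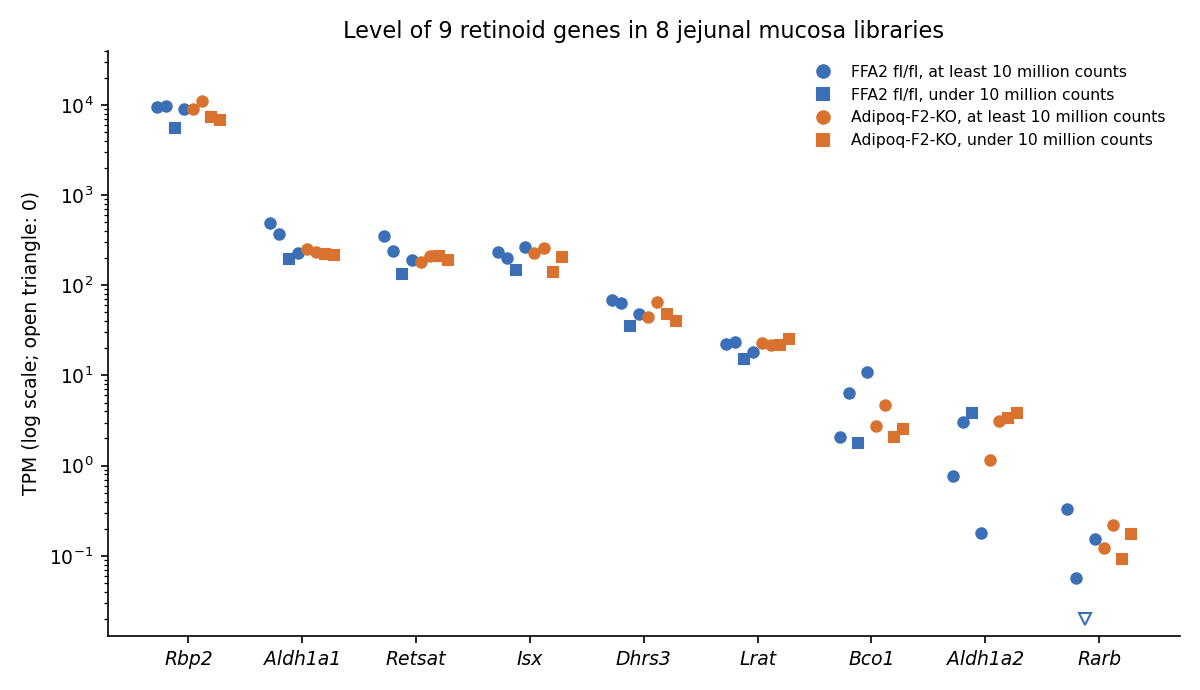
TPM of the 9 genes in each of 8 libraries on a log axis, with genotype by color and library size by marker. Rbp2 lies above every other member in all libraries (5550.4 to 11055 TPM), while Rarb is at or below 0.332 TPM and at 0 in 1 library, drawn as an open triangle.

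No member passed the test of a genotype difference. Of the 8 tested members, 0 passed an adjusted p of 0.05 (DESeq2, Benjamini-Hochberg over 15986 genes), where 6 of all tested genes did, a background of 0.0375%. At an unadjusted p of 0.05, 0 of 8 passed by DESeq2, by edgeR and by limma-voom, beside 3.03% of all tested genes by DESeq2 (1.38% lower and 1.65% higher in Adipoq-F2-KO), 3.48% by edgeR and 4.3% by limma-voom. In none of the 8 were the 4 libraries of one genotype all above those of the other, which occurred for 2.12% of tested genes. Log2 fold changes (Adipoq-F2-KO over FFA2 fl/fl) were above 0 for 3 members and below 0 for 5, with a median of -0.05, against a median of -0.01 over all tested genes. In this bulk RNA, fewer cells of a type and less RNA per cell cannot be told apart.

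Carotenoid cleavage rests on Bco1, the enzyme that splits beta-carotene into retinal. It had 18.2, 56.9, 18.8 and 105 normalized counts in FFA2 fl/fl libraries 1 to 4 and 25.3, 38.4, 22.0 and 26.3 in Adipoq-F2-KO libraries 1 to 4. Control libraries 2 and 4 were the high ones, control libraries 1 and 3 lay below all Adipoq-F2-KO libraries, and the genotypes overlapped. The raw counts behind these values were 30, 108, 9 and 136 against 32, 62, 11 and 14, so the shallow libraries held few reads of this gene. The log2 fold change was -0.83 (SE 0.55, DESeq2 adjusted p = 0.9998), and it shrank to -0.18 without FFA2 fl/fl library 4. It was -1.12 without FFA2 fl/fl library 1 and -0.91 in the 5 deeper libraries.

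Isx, the retinoic acid induced repressor of Bco1, had nearly equal means in both genotypes, 1403 ± 306 (SD, n = 4) for controls against 1399 ± 236 for Adipoq-F2-KO. The controls had 1439, 1280.3, 1085 and 1807 normalized counts and the Adipoq-F2-KO libraries 1509, 1528, 1045 and 1513. The lowest value of each genotype was in a shallow library, and the genotypes overlapped. The log2 fold change was -0.0046 (SE 0.18), its 95% interval spanned 0.777- to 1.28-fold, and it was 0.0089 in the 5 deeper libraries. Scarb1, the carotenoid and lipid transporter that ISX represses, had 42.4, 93.8, 31.4 and 34.8 normalized counts in controls against 17.4, 57.0, 70.1 and 65.8 in Adipoq-F2-KO libraries, with a log2 fold change of 0.01 (SE 0.48). It was -0.61 in the 5 deeper libraries and 0.50 without FFA2 fl/fl library 2. Within libraries, the ratio of Isx to Bco1 in TPM ranged from 24.4 to 112 in controls and from 56.4 to 84.7 in Adipoq-F2-KO.

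For Rbp2, controls had 31329, 32715, 21936 and 32882 normalized counts and Adipoq-F2-KO libraries 31773, 34477, 29463 and 26664. Control library 3 was the lowest of all 8, and the 3 shallow libraries were the 3 lowest. The log2 fold change was 0.04 (SE 0.15), with a 95% interval from 0.839- to 1.26-fold, and it was 0.03 in the 5 deeper libraries.

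Lrat, which esterifies the retinol that RBP2 delivers, had 418, 443, 337 and 377 normalized counts in controls against 446, 376, 482.5 and 549 in Adipoq-F2-KO. Here 3 of 4 Adipoq-F2-KO libraries were above every control, and Adipoq-F2-KO library 2 was below 3 of the controls. The log2 fold change was 0.22 (SE 0.15, DESeq2 adjusted p = 0.9998) in 8 libraries but -0.01 in the 5 deeper ones. The 2 highest values were in the shallow Adipoq-F2-KO libraries and the lowest in the shallow control. Rbp2 exceeded Lrat in TPM by 270.2 to 510.4 times within a library.

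Dhrs3 and Retsat modify retinoids after uptake. Dhrs3 encodes a retinal reductase, itself induced by retinoic acid, and had 698, 652.5, 420.3 and 533 normalized counts in controls against 478, 616, 579 and 481 in Adipoq-F2-KO. Control libraries 1 and 2 were the highest and control library 3 the lowest of the 8, with a log2 fold change of -0.10 (SE 0.18), or -0.20 in the 5 deeper libraries and -0.0003 without FFA2 fl/fl library 1. Retsat, a saturase that converts retinol to dihydroretinol, had 4278, 3013, 1926 and 2587 in controls, against 2365, 2406, 3139 and 2759.9 in Adipoq-F2-KO. The controls held both the highest and the lowest library, and the log2 fold change was -0.15 (SE 0.22). It was -0.47 in the 5 deeper libraries (DESeq2 adjusted p = 0.638) and 0.08 without FFA2 fl/fl library 1. Retsat shares 650 exon bases with Gm45053 on the opposite strand, a locus with 479 reads beside 26956 of Retsat.

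**Figure D2:**
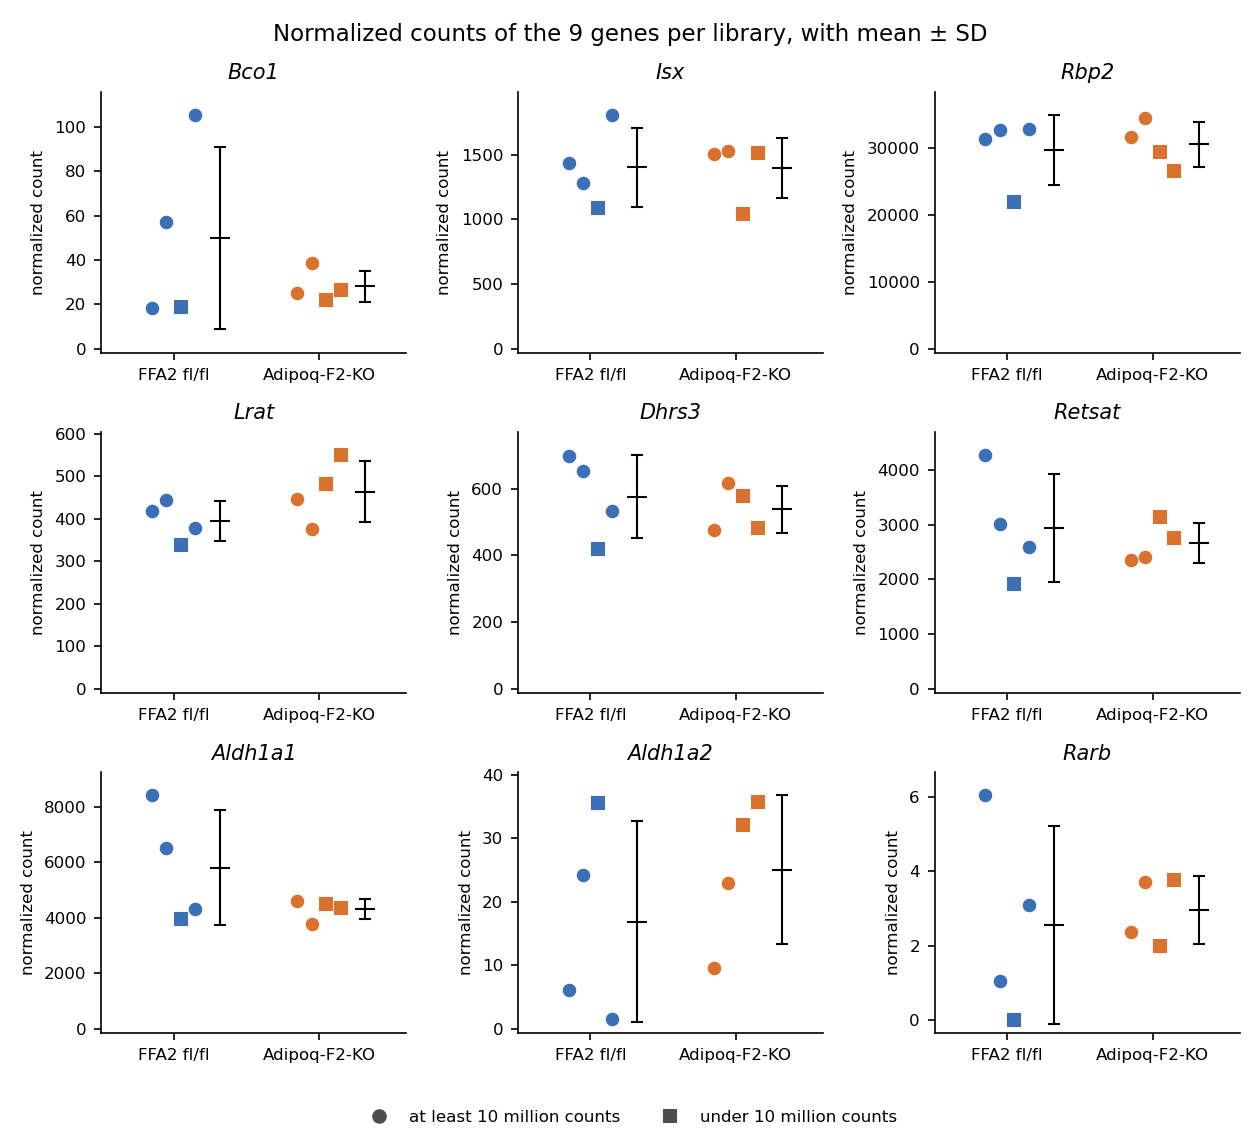
Normalized counts of the 9 genes in each library, 4 per genotype, with the mean and SD beside the points; squares are the 3 libraries under 10000000 counts. The genotypes overlap in every panel, and the SD of controls is the larger in 8 of the 9, all but Lrat (for example Aldh1a1, 2077 against 369).

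Aldh1a1, a retinal dehydrogenase that makes retinoic acid, had the smallest unadjusted p of the 8 tested members (DESeq2, 0.0519, adjusted p = 0.9998). Controls had 8416, 6507, 3963 and 4309.9 normalized counts, a mean of 5799 ± 2077 (SD, n = 4). Adipoq-F2-KO libraries had 4591, 3771, 4501 and 4352, a mean of 4304 ± 369. Control libraries 1 and 2 were above all Adipoq-F2-KO libraries and control libraries 3 and 4 lay among them. The log2 fold change was -0.43 (SE 0.22) and ranged from -0.62 to -0.20 over 17 alternatives, below 0 in all 17 and past an unadjusted p of 0.05 in 5. Without FFA2 fl/fl library 1 it was -0.20, and without FFA2 fl/fl library 3 it was -0.57 with an adjusted p of 0.161 (DESeq2), the lowest of any alternative. In the 5 deeper libraries it was -0.62 (DESeq2 adjusted p = 0.511). At these settings the background share of genes past an unadjusted p of 0.05 was 5.7% (the 5 deeper libraries) and 8.29% (without FFA2 fl/fl library 3). With FFA2 fl/fl library 3 out, shallow libraries remained in Adipoq-F2-KO alone, so genotype and depth cannot be told apart there. Aldh1a1 shares 2.19% of its 75-base runs with Aldh1a7, a close paralog, which had 431 to 875 normalized counts in controls and 587 to 713 in Adipoq-F2-KO.

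Aldh1a2, the retinal dehydrogenase of mesenchymal and myeloid cells, had 6.06, 24.25, 35.55 and 1.55 normalized counts in controls (10, 46, 17 and 2 reads) and 9.47, 22.9, 32.0 and 35.7 in Adipoq-F2-KO (12, 37, 16 and 19 reads). Its highest 3 values were in the shallow libraries, and the lowest 2 in control libraries 4 and 1, the former with fewer than the 3 counts taken as the floor. The log2 fold change was 0.60 (SE 0.75), with a 95% interval from 0.548- to 4.21-fold, and it was 0.59 in the 5 deeper libraries. It was 0.21 without FFA2 fl/fl library 4, 0.31 without FFA2 fl/fl library 1, 1.19 without FFA2 fl/fl library 3 and 1.13 with limma-voom.

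Rarb, the retinoic acid receptor beta and a classical target of its own ligand, was near the floor of detection. It was covered by 10, 2, 0 and 4 reads in controls against 3, 6, 1 and 2 in Adipoq-F2-KO, 28 reads in all, and 3 of 8 libraries exceeded 3 counts, the floor under which a count was not told from absence. It did not pass the filter on low counts and was not tested. Its exons also share 1793 bases with Top2b on the opposite strand, a gene with 8739 reads, so part of these reads could belong to Top2b.

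Other genes of the pathway were taken from 7 lists ordered by role. Of 81 listed, 79 were matched and 56 tested. Among these 56, 23 were above and 33 below 0 in log2 fold change, with a median of -0.06, beside 7753 above and 8233 below over all tested genes. None passed an adjusted p of 0.05 in the 8 libraries (DESeq2), and 1 passed the unadjusted threshold, beside 3.03% of all tested genes. Without FFA2 fl/fl library 3, Plb1 and Ces1f passed (log2 fold changes of 7.74 and -0.64, DESeq2 adjusted p = 0.0001257 and 0.0332), among 108 genes that did. With that library out, shallow libraries remained in Adipoq-F2-KO alone, so genotype cannot be told apart from their depth and content. The gene past the unadjusted threshold in the 8 libraries was Ces1d, a carboxylesterase able to hydrolyse retinyl esters. It had 274, 106.5, 121 and 36.4 normalized counts in controls against 61.6, 27.9, 84.1 and 41.4 in Adipoq-F2-KO. The values overlapped, the log2 fold change was -1.34 (SE 0.51, DESeq2 adjusted p = 0.9998) and -1.64 in the 5 deeper libraries. It was -0.72 without FFA2 fl/fl library 1, the highest control, ranged from -1.67 to -0.72 over 17 alternatives and passed the unadjusted threshold in 11 of them. It did not pass in the deeper libraries, with limma-voom, with the smooth muscle covariate or without FFA2 fl/fl library 1 or 3 or Adipoq-F2-KO library 4. Whether reads are shared among the paralogs of the Ces1 cluster was not measured.

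Uptake and cleavage genes had 4 of 6 above 0 and 2 below. Bco2, the mitochondrial carotenoid oxygenase, ranged from 1179 to 1515 normalized counts in controls and from 1146 to 1639.7 in Adipoq-F2-KO, and Cd36, a fatty acid and carotenoid transporter, from 945 to 1966 and from 778 to 1946. Plb1, a brush border retinyl ester hydrolase singled out after its values were seen, went with the shallow libraries, with 7984, 4995 and 6619.6 normalized counts in them and 536 or fewer in the other 5. The shallow libraries were also those high in Fabp6 and Slc10a2. The proximal small intestine score was highest in Adipoq-F2-KO library 3 (0.373) and lowest in FFA2 fl/fl library 3 (-0.225), both shallow. The part of gut position in this was not tested. The log2 fold change of Plb1 was 0.60 (SE 2.07) in 8 libraries and 4.30 in the 5 deeper ones (DESeq2 adjusted p = 0.197). There the 2 Adipoq-F2-KO libraries had 536 and 30.4 against 5.45, 8.96 and 28.6 in controls. Binding proteins had 2 of 5 above 0 and 3 below. Rbp7, a retinol carrier of adipose and vascular cells, ranged from 10.0 to 28.03 normalized counts over the 8 libraries, and Rbp4, the carrier of plasma, from 15.5 to 36.0.

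Esterification and ester hydrolysis genes had 1 of 6 above 0 and 5 below, with a median of -0.25. Dgat1, which also esterifies retinol, had 5684 to 8833 normalized counts in controls and 5828 to 8361 in Adipoq-F2-KO, and Ces1f 782 to 2408 and 1095 to 1278. Retinol and retinal interconversion had 6 of 21 above 0 and 15 below, with a median of -0.15. Adh1, an alcohol dehydrogenase acting on retinol, had 3348 to 11309 normalized counts in controls and 4651 to 6353 in Adipoq-F2-KO. Dhrs11, a short-chain dehydrogenase, was the 1 pathway gene whose genotypes did not overlap, with 2643, 2588, 3085 and 3048 in controls, against 3132, 3187, 3125 and 3098 in Adipoq-F2-KO. Its log2 fold change was 0.15 (SE 0.09, DESeq2 adjusted p = 0.9998), and 2.12% of all tested genes did not overlap.

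Retinoic acid synthesis and breakdown had 2 of 3 tested genes above 0. Cyp2s1, a cytochrome P450 able to metabolize retinoic acid, had 614 to 781 normalized counts over the 8 libraries. Cyp26a1 and Cyp26c1, retinoic acid hydroxylases, had at most 4.64 and 5.64 normalized counts, and Cyp26b1 3.10 to 58.3. Crabp1 and Crabp2, which bind retinoic acid, and Stra6, a receptor for plasma retinol-binding protein, had at most 0.789, 2.11 and 7.52. These 6 genes were chosen after their values were seen, and none of them was tested. Receptors had 2 of 4 above 0. Rxra, the shared partner of RAR, had 2217 to 2527 normalized counts over 8 libraries and Rara 491 to 599. Retinoic acid response genes had 6 of 11 above 0. Nrip1, a receptor corepressor, ranged from 2827 to 4111, and Cdx1, an intestinal homeobox factor, from 498.5 to 629.

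**Figure D3:**
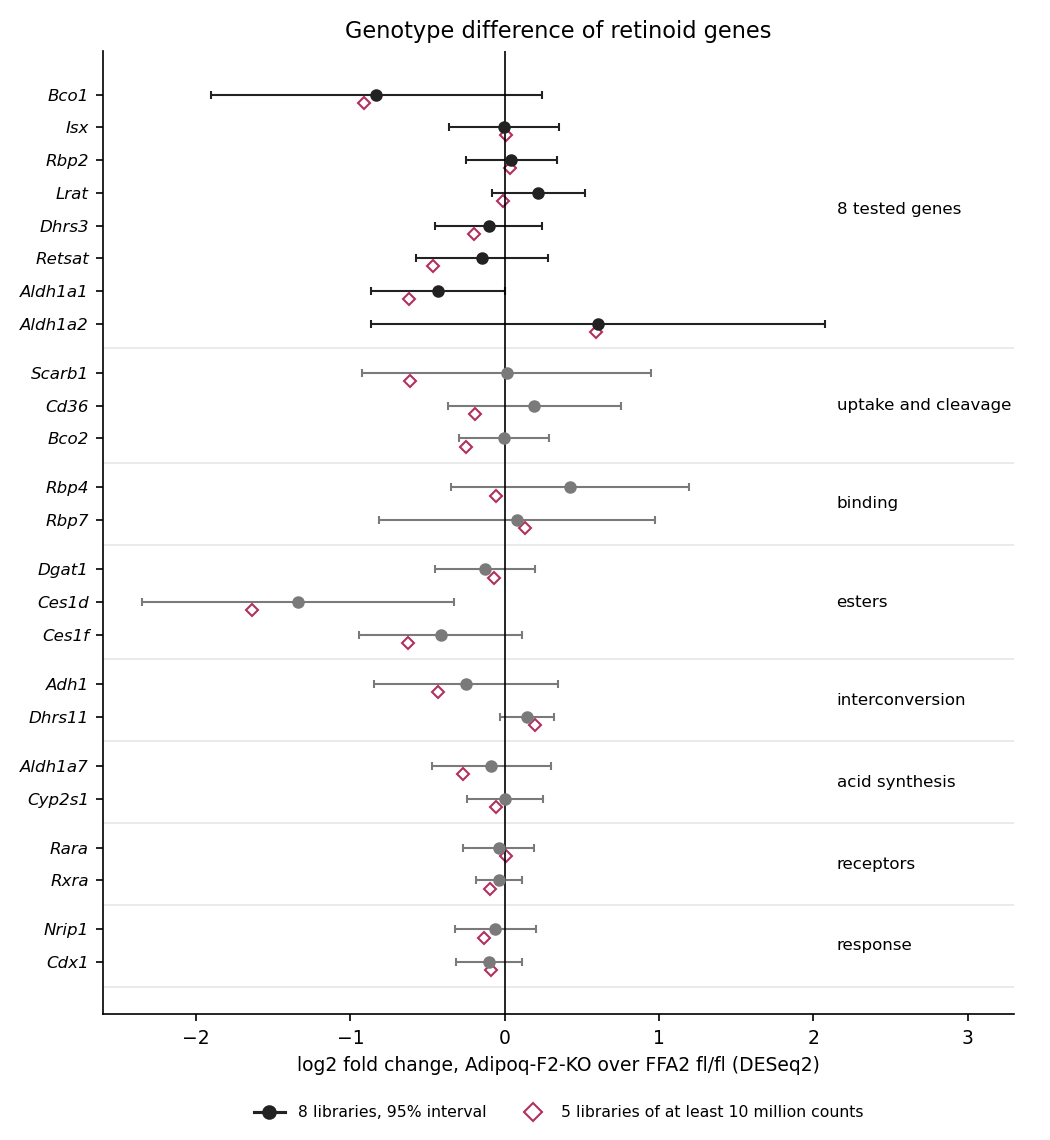
DESeq2 log2 fold changes (Adipoq-F2-KO over FFA2 fl/fl) of the 8 tested members in black and of other named retinoid genes in gray, with 95% intervals over 8 libraries; diamonds are the 5 deeper libraries. Intervals include 0 for all but Ces1d (-1.34), and the diamonds of Aldh1a1 (-0.62) and Retsat (-0.47) lie further below 0 than their 8-library values.

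Levels of the members were set beside marker list scores (the mean over a list of log2 values centred on the 8 libraries). Scores of smooth muscle, stromal fibroblast, macrophage and epithelial markers gave 32 relations with the 8 tested members. Aldh1a2 rose with the stromal score (Pearson's r = 0.946, exact permutation p = 9.921e-05, adjusted 0.00318, Spearman's rho = 0.952, exact permutation p = 0.00114, adjusted 0.0365). With smooth muscle, r was 0.874 (exact permutation p = 0.00221, adjusted 0.0235) and rho 0.905 (exact permutation p = 0.00456, adjusted 0.0487). With macrophage markers, r was 0.972 (exact permutation p = 0.00127, adjusted 0.0202) and rho 0.786 (exact permutation p = 0.0279, adjusted 0.179). Leaving out the 2 libraries farthest from the median score gave r of 0.948, 0.816 and 0.839, and in the 5 deeper libraries r was 0.938, 0.911 and 0.997. The stromal and macrophage scores were added after the values of Aldh1a2 were seen, and the 3 scores share the same libraries and depths. The smooth muscle markers summed to 292 to 22756 normalized counts in controls and 523 to 7809.6 in Adipoq-F2-KO, and the macrophage markers to 183 to 596 and 403 to 778. The stromal markers summed to 4919 to 5678 in controls and 4211 to 5901 in Adipoq-F2-KO, or 135 to 1951 and 272 to 1323.5 without Fbln1, which makes up most of that sum. The part of this content in the genotype value of Aldh1a2 was not tested beyond a fit with the smooth muscle score as covariate, where its log2 fold change was 0.72.

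**Figure D4:**
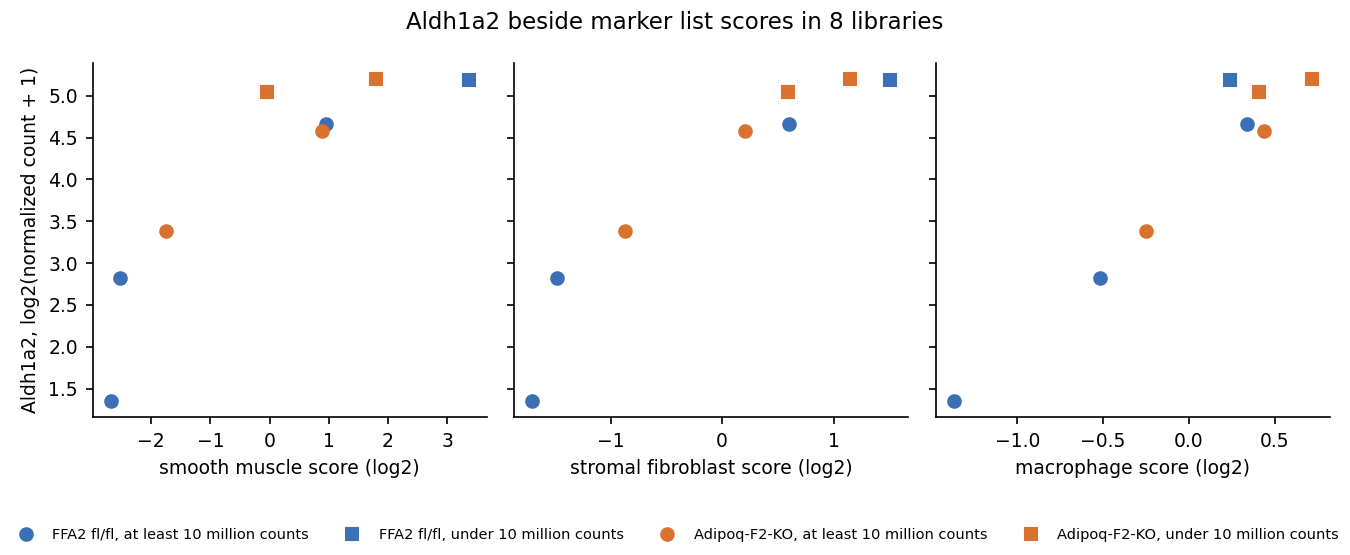
Aldh1a2, as log2(normalized count + 1), against the smooth muscle, stromal fibroblast and macrophage scores (log2 units) in 8 libraries. Points climb from FFA2 fl/fl libraries 4 and 1 at the lower left to the shallow libraries at the top, with r of 0.874, 0.946 and 0.972.

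Of the other members, Retsat fell with the epithelial score by rank (rho = -0.905, exact permutation p = 0.00456, adjusted 0.0487) and had r of -0.750 (exact permutation p = 0.0293, adjusted 0.194), or -0.928 without the 2 farthest libraries. Dhrs3 (r = -0.755) and Aldh1a1 (r = -0.734) had similar values that did not pass after adjustment, with 0.194 for both. The epithelial score itself varied little, from -0.203 to 0.126 over the 8 libraries. In the 5 deeper libraries r with it was -0.655 for Retsat, -0.760 for Dhrs3 and -0.779 for Aldh1a1. None of the remaining relations passed. Among 28 pairs of members, computed after the values were seen, 0 passed after adjustment. The closest were Retsat with Aldh1a1 (r = 0.838, exact permutation p = 0.00796, adjusted 0.185) and Dhrs3 with Retsat (r = 0.80, exact permutation p = 0.0132, adjusted 0.185), the former 0.558 and the latter 0.405 without the 2 farthest libraries.

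Across the 8 libraries, the genes most like each member were sought among 10219 tested genes with a mean normalized count of at least 50. Rbp2 was most like Lcmt1 (r = 0.989) and Pign (0.982), Lrat like Hypk (0.960) and Gm45133 (0.957), Bco1 like Dcst1 (0.979) and Nacc1 (0.958), and Isx like Gm6733 (0.974) and Rcor1 (0.960). Dhrs3 was most like Taz (0.988) and Tcta (0.969), Retsat like Eci2 (0.984) and BC030870 (0.950), and Aldh1a1 like Slc5a4b (0.973) and Phospho1 (0.949). Aldh1a2 was most like Igfbp7 (0.987), a secreted protein of vessels and stroma, and Bgn (0.978), the matrix proteoglycan biglycan. These are the highest of many values over 8 libraries and describe likeness only.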

How the data were processed

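The deposited values are raw read counts per Ensembl gene, 1 set per library, made by the authors from single-end 75-base reads of stranded poly(A) libraries with Trimmomatic, STAR and featureCounts, neither normalized nor pooled. The submitters' processing notes name GRCm38 (mm10); software versions, annotation release and strand setting are not given in the sources used here, so genes overlapping another are reported as uncertain. Groups and replicate numbers came from sample titles, and the 4 samples per genotype were taken as separate mice, since the study gives its group sizes in mice.

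The members and gene lists were chosen with earlier results of these data known. Symbols, positions and exon lengths came from GENCODE M21 (GRCm38), and 4855 identifiers, holding 0.71% of counts, were not in it. The test covered the 15986 genes that reached 10 counts in 4 or more libraries and used DESeq2 1.42.0 in R 4.3.3, as in the study, with genotype as the only term, two-sided Wald tests and Benjamini-Hochberg adjustment. DESeq2 gave no adjusted p for 8 tested genes. Alternatives used edgeR 4.0.16 and limma 3.58.1, other scalings and filters, a replicate block, a smooth muscle covariate, the 5 deeper libraries, and each library left out. TPM used merged exon length. Correlations used log2(normalized count + 1) and two-sided exact permutation tests. Within a genotype, pairs of libraries differed by a chi-square of 5.16 to 50.3 per gene, so none was a duplicate. Named genes were all members, Scarb1, the 2 highest by TPM in each list, any list gene past an unadjusted p of 0.05, and the 2 most like each member. A few others were chosen after their values were seen, as stated beside them. Of the genes set to be named beforehand, the values of 1 are left out, and most other list genes enter only the counts and medians. Intervals are 95% intervals from the SE of the DESeq2 fit, and the floor of 3 counts was a fixed setting. Reads carried no molecular identifiers. The scripts were tested on simulated counts, with changes placed only in genes with a mean normalized count of at least 50. Bco1 and Aldh1a2 lie below that mean. DESeq2 recovered most but not all of the changed genes. It made more false calls than edgeR and limma-voom, and more than its threshold allows.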

Additional observations from a re-analysis of the deposited data

Results flagged for a closer look

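Within each genotype, sets of 4 libraries were examined for a library far from the other 3 (Dixon's test at 95%). Of 52 sets of genes not picked for standing apart, 3 did so, where about 1 in 20, or 2.6, would by chance. Another 4 are sets of Plb1, Fabp6 and Slc10a2, which were chosen because they stand apart, so no chance count applies to them. Among the members, Rbp2 was low in FFA2 fl/fl library 3 (21936 normalized counts, others 31329 to 32882) and Isx was low in Adipoq-F2-KO library 3 (1045, others 1509 to 1528). Both are shallow libraries. Plb1 was high in FFA2 fl/fl library 3 (7984, others 5.45 to 28.6). Fabp6 was high in FFA2 fl/fl library 3 (523, others at most 1.21) and in Adipoq-F2-KO library 4 (942, others 1.24 to 140.1). Slc10a2 was high in FFA2 fl/fl library 3 (330.4, others 30.0 to 78.2). Nrip1 was low in Adipoq-F2-KO library 2 (2827, others 3873 to 3944).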

How the results depend on the processing

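No member passed an adjusted p of 0.05 where an alternative gave one. Aldh1a2 had none from DESeq2 in the 5 deeper libraries or without FFA2 fl/fl library 3, and Bco1 and Aldh1a2 did not reach 10 counts in all 8 libraries and were not tested under that filter. The number of genes that did, 6 in the reported fit, was 2 with edgeR, 1 with limma-voom, 3 without a filter, 11 with a replicate block, 81 in the 5 deeper libraries and between 1 and 108 with 1 library left out (108 without FFA2 fl/fl library 3, 18 without FFA2 fl/fl library 2, 1 without FFA2 fl/fl library 1). At an unadjusted p of 0.05 the members went from 0 to 1 with TMM factors or epithelial size factors, to 2 in the deeper libraries and to between 0 and 2 with 1 library left out. The other retinoid genes went from 1 to 0 with limma-voom, 3 with the replicate block, 6 in the deeper libraries (median log2 fold change -0.18) and between 1 and 4 with 1 library left out (4 without FFA2 fl/fl library 3). All tested genes past that threshold were 3.03% in the reported fit, 3.07% with TMM factors, 3.41% with epithelial size factors, 2.71% with the block, 5.7% in the deeper libraries and 8.29% without FFA2 fl/fl library 3. Plb1 and Ces1f passed an adjusted p of 0.05 without that library, a fit with shallow libraries in Adipoq-F2-KO alone. No other retinoid gene passed in an alternative that gave it an adjusted p. Same-number correlations of deviations were 0.54, 0.29, 0.01 and -0.42, so title numbers gave no sign of a pairing. The authors' own names for the samples carry other numbers, and pairing by litter or cage could not be tested. With the block, 0 members passed an adjusted p of 0.05. Values near 0 turned sign: the median log2 fold change was 0.0381 over members and 0.0253 over the other retinoid genes without FFA2 fl/fl library 1, Rbp2 was -0.056 with epithelial size factors and between -0.0772 (without FFA2 fl/fl library 3) and 0.101 with 1 library left out, Lrat -0.0117 in the deeper libraries, Isx 0.0064 with the block, 0.0523 with the smooth muscle covariate, 0.0089 in the deeper libraries and -0.105 to 0.141 with 1 left out, and Retsat -0.304 to 0.0848 (without FFA2 fl/fl library 1) with 1 left out. Without the 2 farthest libraries, relations that had not passed turned sign for Bco1 with the epithelial score (0.120), and, with scores added after seeing the data, for Lrat with the stromal (-0.119) and for Bco1 (0.151), Dhrs3 (0.255) and Retsat (0.387) with the macrophage score. TPM moved by more than its SD for Lrat (18.0) and Aldh1a1 (486) with the longest transcript. The causes were not tested. Depth limits Bco1, Aldh1a2 and Rarb, with 402, 159 and 28 reads in all.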

Other observations

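The balance of the retinal dehydrogenases differed between libraries. In TPM, Aldh1a1 exceeded Aldh1a2 by 637, 123, 51.1 and 1277 times in FFA2 fl/fl libraries 1 to 4 and by 222, 75.4, 64.4 and 55.9 times in Adipoq-F2-KO libraries 1 to 4. The controls held both the highest ratio, in library 4 with 2 reads of Aldh1a2, and the lowest, in library 3, so the genotypes overlapped.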
